A study of Mus musculus with 9 samples.

Results

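Transcripts that mark neighbouring compartments of the mouse hair follicle were followed in sorted bulge stem cells from mice on restricted or free feeding. They were chosen by symbol from the per-library count tables: Cd34, Cd200, Lgr5, Lgr6, Lrig1 and Postn, which are 6 of 35006 gene symbols listed and 6 of 15447 tested. Mice under dietary restriction (DR, 4 libraries) were C57BL/6J animals that received each day 70% of the food eaten by matched mice, and mice fed ad libitum (AL, 5 libraries) were of the same strain. In both diets the mice lived singly and the cells were sorted by flow cytometry as positive for CD34 and alpha6 integrin, from pools of 3 mice. The labels name more than one animal supplier and facility without saying which served which library, and they give no age, sex, hair cycle stage or batch. Whether each library came from its own pool is also not given, so p-values measure the spread between these libraries, which may be partly technical.

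The bulge is the niche in the lower permanent follicle where slow-cycling stem cells rest between hair cycles. The hair germ lies directly below it and divides first when a new cycle starts, while the isthmus and the junctional zone lie above it and serve the upper follicle and the sebaceous gland. CD34, a sialomucin of the cell surface, marks the mouse bulge, and CD200, an immunoglobulin-type surface glycoprotein that restrains myeloid cells through its receptor, is found on bulge and germ cells. Periostin (Postn) is a secreted matrix protein that binds integrins. LGR5 and LGR6 are related receptors for R-spondins, which strengthen Wnt signalling: LGR5 marks the lower bulge and germ, and LGR6 the isthmus. LRIG1, a membrane protein of the junctional zone, is known to lower signalling by the epidermal growth factor receptor.

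Stretches around the annotated transcription starts of the 4 members that passed the diet test are shown to give the DNA context of these transcripts. They run from 250 bases before to 50 bases after the start, 5′ to 3′ on the gene's strand, in the RefSeq table of GRCm38.p6, a build other than the mm9 of the counts. The table held 5 of the 6 members by symbol. Postn has more than one annotated start there, and the stretch with a TATA box match is shown. Capitals mark matches to any of 5 motifs searched on both strands, allowing overlaps.
Cd34 (chr1:194938571-194938870, plus strand): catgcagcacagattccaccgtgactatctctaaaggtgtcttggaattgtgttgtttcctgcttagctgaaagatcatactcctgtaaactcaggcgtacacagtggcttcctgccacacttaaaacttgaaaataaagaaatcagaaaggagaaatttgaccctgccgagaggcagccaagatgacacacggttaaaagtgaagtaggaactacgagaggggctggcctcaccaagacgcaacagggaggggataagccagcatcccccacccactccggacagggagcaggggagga
Postn, second start (chr3:54360857-54361156, plus strand): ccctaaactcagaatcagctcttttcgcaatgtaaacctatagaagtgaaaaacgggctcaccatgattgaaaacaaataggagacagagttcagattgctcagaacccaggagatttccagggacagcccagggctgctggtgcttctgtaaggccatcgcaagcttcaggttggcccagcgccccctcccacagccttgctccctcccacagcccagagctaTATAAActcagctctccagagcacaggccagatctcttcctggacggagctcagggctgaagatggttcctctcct
Lgr6 (chr1:135105227-135105526, minus strand): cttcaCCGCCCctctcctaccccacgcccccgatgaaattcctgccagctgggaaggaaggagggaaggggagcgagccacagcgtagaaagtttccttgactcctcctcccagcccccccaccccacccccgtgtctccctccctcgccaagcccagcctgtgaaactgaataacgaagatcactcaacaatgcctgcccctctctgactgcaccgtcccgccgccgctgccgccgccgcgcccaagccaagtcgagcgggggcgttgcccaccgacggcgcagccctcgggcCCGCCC
Cd200 (chr16:45409004-45409303, minus strand): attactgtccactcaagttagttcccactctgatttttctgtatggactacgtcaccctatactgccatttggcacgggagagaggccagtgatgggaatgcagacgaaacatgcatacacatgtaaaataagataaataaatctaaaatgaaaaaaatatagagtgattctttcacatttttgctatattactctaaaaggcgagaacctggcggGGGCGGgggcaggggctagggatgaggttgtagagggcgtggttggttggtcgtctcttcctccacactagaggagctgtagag
The motifs were the TATA box TATAAA, the CAAT box CCAAT, the GC box GGGCGG, the AP-1-type motif TGANTCA and the TCF/LEF-type motif CTTTGAT. Among the stretches printed, TATAAA occurred in that of Postn (1 match), and GGGCGG in those of Lgr6 (2 matches) and Cd200 (1 match). Because the Postn stretch was picked for its TATAAA, that match cannot be set against the share over all stretches. The Postn stretch not printed had no TATAAA and 1 CCAAT match. None of the 5 motifs occurred in the stretch of Cd34. Of 32851 stretches of this length in the table, 13.6% held TATAAA, 37.4% CCAAT and 35.7% GGGCGG. The AP-1-type motif TGANTCA was in 7.81% and the TCF/LEF-type motif CTTTGAT in 3.73% of them. These matches are a description of the letters only.

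Libraries held 26119459 to 33559312 gene counts. Markers of the labelled cell type were abundant. Krt15, the bulge keratin, stood at 8493 ± 554 CPM (counts relative to library size, after TMM scaling) in DR and 12360 ± 1811 CPM in AL (SD, n = 4 and 5) and was lower in DR (log2 fold change -0.54, adjusted p = 0.0236 by edgeR). Itga6, which encodes the other antigen of the sort, stood at 412 ± 11.8 CPM in DR and 448 ± 44.8 CPM in AL, with no difference past the threshold (log2 fold change -0.12 with SE 0.10, adjusted p = 0.344 by edgeR). Markers of other cells were also present and differed between libraries. The 8 endothelial markers summed to 6.06 to 57.2 CPM in DR and 2.71 to 24.8 CPM in AL, highest within each diet in DR replicates 1 and 2 and in AL replicate 1. The same 3 libraries were highest for the 8 leukocyte markers (9.92 to 54.2 CPM in DR, 2.44 to 41.5 CPM in AL) and for the 5 adipocyte markers (3.35 to 46.6 CPM in DR, 0.564 to 11.8 CPM in AL). Keratins and envelope genes of the differentiated epidermis, 6 in all, summed to 1675 to 4930 CPM in DR and 1483 to 4284 CPM in AL. Other sums did not overlap between the diets. Markers of the hair shaft and inner root sheath summed to 38.9 to 56.4 CPM in DR and 20.1 to 25.7 CPM in AL. Tchh alone averaged 42.6 CPM in DR and 17.2 CPM in AL. The shaft keratin genes were scarce: Krt31 averaged 0.680 CPM in DR and 0.185 CPM in AL, and Krt35 and Krt86 at most 0.0776 CPM in either diet. Schwann markers summed to 32.9 to 37.9 CPM in DR and 19.9 to 31.2 CPM in AL. Muscle and pericyte markers summed to 415 to 478 CPM in DR and 545 to 695 CPM in AL. Tchh, Mbp and Cspg4, in that order, made up most of these sums. Fibroblast sums, given below, did not overlap either. The 10 cycling markers summed to 11.1 to 35.4 CPM in DR and 91.1 to 682 CPM in AL, where AL replicate 5 was the lowest and the next library had 353 CPM. In such bulk samples fewer cells of a kind and less RNA per cell cannot be told apart.

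Of the 6 members, 3 fell in DR (Cd34, Postn and Lgr6), 1 rose (Cd200) and 2 did not pass the test (Lgr5 and Lrig1). Over all genes tested 40.7% passed, 21.7% lower and 19.0% higher in DR. With 4 of 6 called, the members are too few to be set apart from that background. The median log2 fold change of the 6 was -0.47, against -0.025 over all genes tested. Leaving out AL replicate 1 and DR replicates 1 and 2, which held the most endothelial, leukocyte and adipocyte marker RNA, kept the directions of the 4 called members. In that fit of 2 DR and 4 AL libraries their edgeR adjusted p-values were 0.0522 to 0.32, all above the threshold, and 3 of the 4 had an unadjusted p under 0.05.

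**Figure D1:**
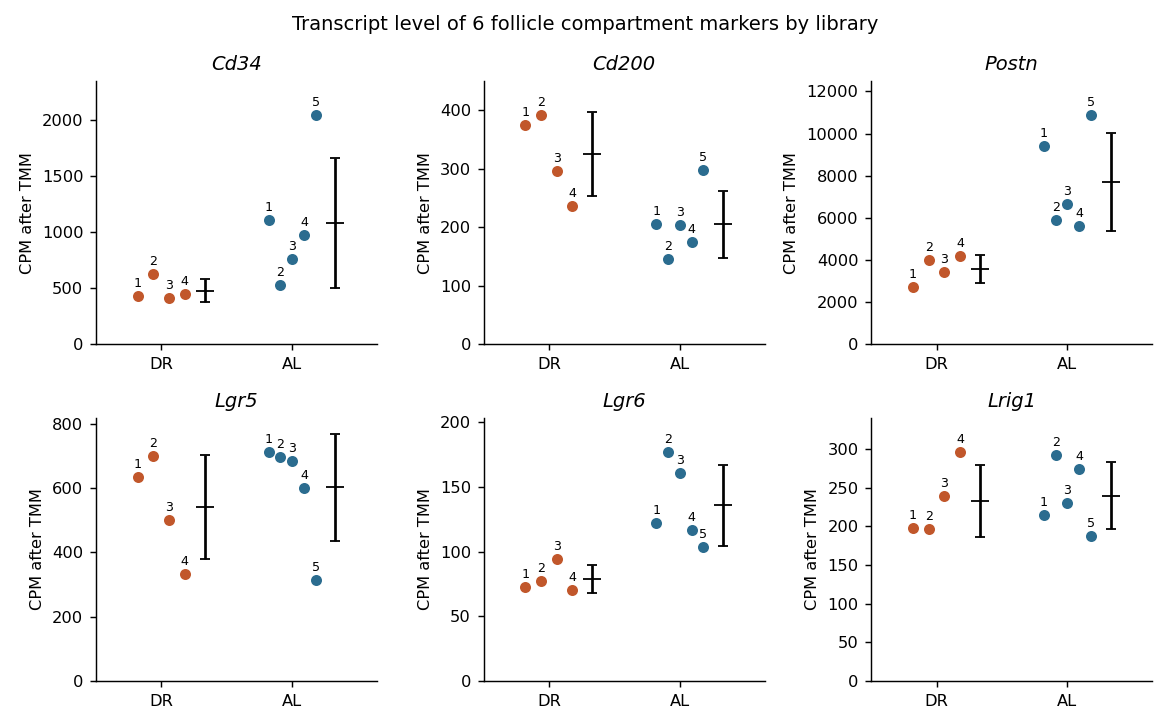
CPM of the 6 members (y axes, linear from 0) in each DR and AL library; points carry the replicate number, and the bar beside them is the mean with SD (n = 4 and 5). Postn and Lgr6 were lower in every DR library than in any AL library, while the other 4 members overlapped between the diets.

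Cd34 was lower in DR, and the AL libraries spread widely. Its level was 427, 629, 413 and 444 CPM in DR replicates 1 to 4, against 1107, 530, 759, 975 and 2040 CPM in AL replicates 1 to 5. AL replicate 5 stood well above the next AL library, and AL replicate 2 lay below DR replicate 2, so the diets overlapped. The mean was 478 ± 102 CPM in DR and 1082 ± 578 CPM in AL (SD, n = 4 and 5). Its log2 fold change was -1.18 (SE 0.33, 95% interval -1.91 to -0.44, adjusted p = 0.016 by edgeR). CD34 protein was itself a sorting criterion in both diets. The fold change shrank to -0.82 without AL replicate 5 (adjusted p = 0.0133), and on leaving out DR replicate 3 it missed the threshold (-1.10, adjusted p = 0.0523).

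Endothelial cells also carry Cd34. Their 8 markers summed to 57.2, 32.7, 7.10 and 6.06 CPM in DR replicates 1 to 4, against 24.8, 4.51, 5.69, 12.7 and 2.71 CPM in AL replicates 1 to 5. DR replicate 2, with the most Cd34 in DR, was second there for this sum, and AL replicate 1, second for Cd34 in AL, was first. AL replicate 5, with the most Cd34 of all, had the lowest sum. The part of endothelial cells, or of other cells such as fibroblasts, in the Cd34 difference was not tested. Of the markers of mast cells, another CD34-positive lineage of skin, Cpa3, Mcpt4 and Ms4a2 were at 0 in all 9 libraries, and the 5 markers summed to at most 0.0376 CPM in DR and 0.0722 CPM in AL. The annotation places the antisense gene Gm16897 over 148 bases of the Cd34 exons. Since the library kit does not mark strand, reads of both cannot be told apart there. How the counting treated such reads is not given. The 51-base stretches shared with Gm16897 make up 3.87% of those in the Cd34 coding transcripts.

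Postn was the most abundant member and fell in DR. DR replicates 1 to 4 had 2716, 3987, 3431 and 4178 CPM, against 9414, 5897, 6675, 5624 and 10862 CPM in AL replicates 1 to 5. The lowest AL library lay above the highest DR library. Among all genes tested the diets did not overlap for 32.9%, with all DR values below all AL values for 17.0% and above them for 15.9%. The mean was 3578 ± 656 CPM in DR and 7694 ± 2321 CPM in AL (SD, n = 4 and 5). Its log2 fold change was -1.10 (SE 0.24, adjusted p = 0.00386 by edgeR). As for Cd34, AL replicate 5 was the highest, followed by AL replicate 1. No 51-base stretch of its coding transcripts occurred in transcripts of another gene.

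Fibroblasts also secrete periostin. The 8 fibroblast markers summed to 23.4 to 45.4 CPM in DR and 86.0 to 142 CPM in AL. Col1a1 and Col1a2 had the highest means of this list in both diets. Of the 6 that were tested, 3 were lower in DR (Col1a1, Col1a2 and Thy1) and 1 was higher (Pdgfra). Pdgfra averaged 3.02 CPM in DR and 1.07 CPM in AL. Dcn (log2 fold change 0.81) and Fbn1 (-0.12) did not pass, so the markers did not share a direction. Col1a2 averaged 19.6 CPM in DR and 51.9 CPM in AL, Col1a1 4.87 CPM in DR and 49.4 CPM in AL, and Thy1 2.90 CPM in DR and 13.1 CPM in AL. Lum and Col3a1, under the filter, averaged 0.0978 and 0.418 CPM in DR and 0.104 and 0.717 CPM in AL. The part of such cells in the Postn difference was not tested.

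Cd200 was the member that rose. DR replicates 1 to 4 had 374, 391, 296 and 237 CPM, against 205, 146, 204, 174 and 298 CPM in AL replicates 1 to 5. AL replicate 5 reached above DR replicates 3 and 4, and the other 4 AL libraries lay below all of DR. The mean was 325 ± 71.6 CPM in DR and 205 ± 57.3 CPM in AL (SD, n = 4 and 5). Its log2 fold change was 0.66 (SE 0.21, 95% interval 0.21 to 1.12, adjusted p = 0.0248 by edgeR), or 1.58-fold. The call was lost on leaving out any of 4 libraries: the adjusted p was 0.0505 without AL replicate 3, 0.0526 without AL replicate 4, 0.0633 without DR replicate 1 and 0.0724 without DR replicate 2. Without AL replicate 5 the fold change was 0.83 (adjusted p = 0.00279). All 4 genes of the CD200 receptor family were under the filter, with a sum of at most 0.0299 CPM in any DR library and no count in AL.

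Lgr6, the isthmus receptor, fell in DR. Its SD was 13.7% of the mean in DR and 23.1% in AL. DR replicates 1 to 4 had 72.6, 77.3, 94.4 and 70.7 CPM, against 122, 177, 160, 116 and 103 CPM in AL replicates 1 to 5. The groups did not overlap, and AL replicate 5 came closest to DR. The mean was 78.8 ± 10.8 CPM in DR and 136 ± 31.3 CPM in AL (SD, n = 4 and 5). Its log2 fold change was -0.79 (SE 0.16, adjusted p = 0.00321 by edgeR), or 1.73-fold lower. It passed in each fit with 1 library left out (adjusted p 0.00107 to 0.0145).

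Lgr5, the related receptor of the lower bulge and germ, did not pass. DR replicates 1 to 4 had 636, 698, 501 and 334 CPM, against 712, 697, 684, 601 and 315 CPM in AL replicates 1 to 5. Low values occurred on both sides, in DR replicate 4 and AL replicate 5, and the remaining AL libraries stood close together. The log2 fold change was -0.15 (SE 0.26, adjusted p = 0.675 by edgeR), with a 95% interval of -0.72 to 0.42. Of the 51-base stretches in Lgr5 coding transcripts, 1.26% also occurred in transcripts of other genes, and none of those in Lgr6 did.

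Lrig1, the marker of the junctional zone, did not pass either. DR replicates 1 to 4 had 198, 196, 239 and 296 CPM, against 215, 292, 230, 275 and 187 CPM in AL replicates 1 to 5. The ranges covered each other almost fully. The log2 fold change was -0.04 (SE 0.16, adjusted p = 0.85 by edgeR), with a 95% interval of -0.40 to 0.31. The neighbouring gene Slc25a26 lies on the opposite strand over 144 bases of its exons, which touches 1.80% of the 51-base stretches.

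**Figure D2:**
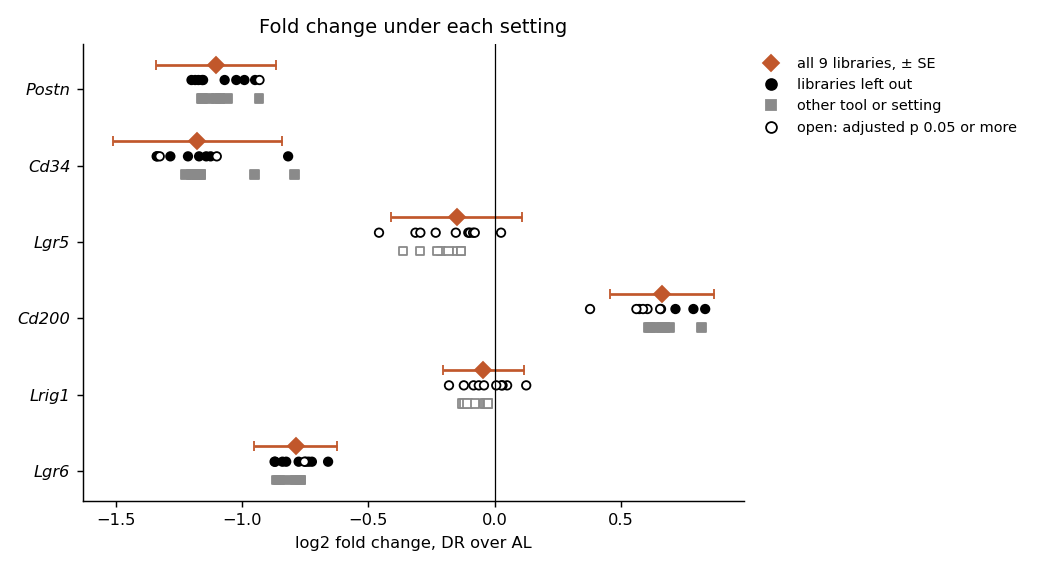
Log2 fold change of each member (x axis, DR over AL) with all 9 libraries (diamond, bar ± SE), with libraries left out (circles) and under other tools or settings (squares); open symbols have an adjusted p of 0.05 or more. Postn, Cd34 and Lgr6 stayed below 0 and Cd200 above 0 throughout, while Lrig1 and Lgr5 were found on both sides.

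AL replicate 5, the AL library with the least cycling transcript, was at an end of the AL range for all 6 members. It had the most Cd34, Postn and Cd200 and the least Lgr5, Lgr6 and Lrig1. For Cd34 and Postn it lay farther from DR than the other AL libraries, and for Cd200 and Lgr6 it lay nearer to DR. Without it, the fit still called Cd34, Postn and Lgr6 lower and Cd200 higher in DR. Mki67, the proliferation marker, stood at 36.6 CPM in AL replicate 5, against 126.1 to 258 CPM in the other AL libraries and 6.47 to 15.4 CPM in DR. The part of cycling in the members' differences was not tested.

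Levels of different genes were compared per kilobase of the longest coding transcript in GENCODE M21. Postn was first with 1116 ± 205 CPM per kb in DR and 2401 ± 724 in AL (SD, n = 4 and 5). Cd34 was second with 187 ± 39.7 CPM per kb in DR and 424 ± 226 in AL. By this length the order Postn, Cd34, then Cd200 and Lgr5, then Lrig1, then Lgr6 was seen in all 9 libraries, with Cd200 and Lgr5 changing places. Cd200 stood at 138 ± 30.5 CPM per kb in DR and 87.4 ± 24.4 in AL, and Lgr5 at 115 ± 34.3 in DR and 128 ± 35.2 in AL. Cd200 was above Lgr5 in all 4 DR libraries and in AL replicate 5, and below it in the other 4 AL libraries. The 2 levels lay within about 1 SD of each other in DR, and the order depends on the length used. Per kb of all annotated exons, Cd200 stood above Cd34 in DR, with means of 97.8 and 65.6 CPM, and Cd200 stood above Lgr5 in AL, with means of 61.8 and 58.6 CPM. Lrig1 had 47.0 ± 9.47 CPM per kb in DR and 48.4 ± 8.68 in AL. Lgr6 was last with 11.8 ± 1.62 CPM per kb in DR and 20.4 ± 4.69 in AL.

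**Figure D3:**
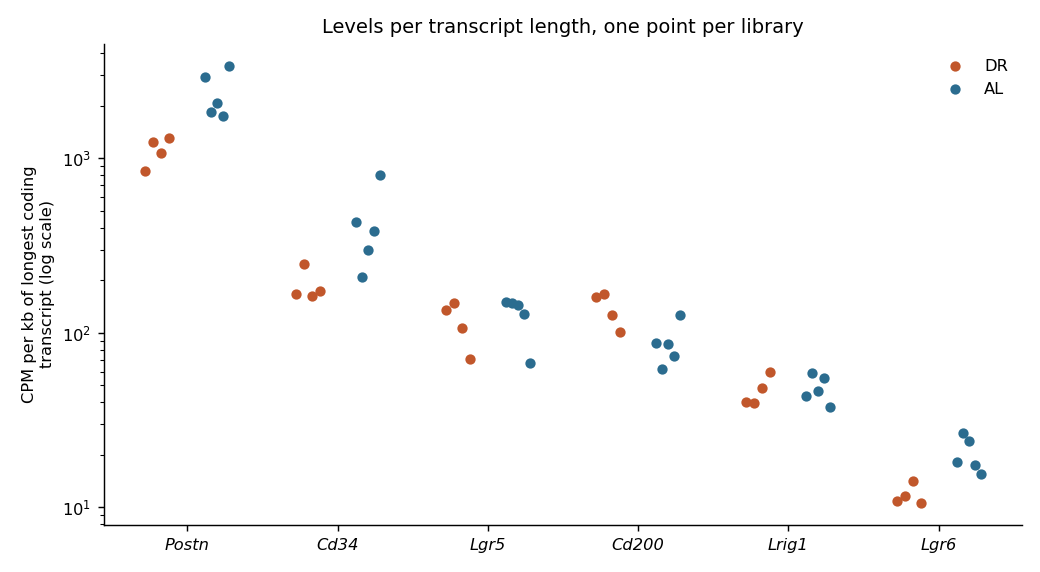
CPM per kb of the longest coding transcript (y axis, log scale) of each member, with 1 point per DR or AL library. By this length Postn and Cd34 led and Lgr6 was last in all 9 libraries, and the points of Cd200 and Lgr5 overlapped.

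A ratio of counts within a library does not depend on how libraries are scaled, and it tests the difference between a pair of transcripts directly. The 4 ratios below were compared with a two-sided exact permutation test of the diet labels over the 9 libraries, for which 0.0159 is the smallest p. They were chosen with earlier results of these data known, so the p-values are no independent evidence. With 1 library left out, the 3 ratios called below had adjusted p-values above 0.05 in 7 of 9 cases each (up to 0.0952), where fewer arrangements of the labels raise the smallest p.

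Cd200 over Cd34 showed the clearest separation. Its log2 ratio was -0.19, -0.69, -0.48 and -0.91 in DR replicates 1 to 4, against -2.44, -1.86, -1.90, -2.49 and -2.77 in AL replicates 1 to 5. The difference was 1.73 on the log2 scale, or 3.31-fold higher in DR, and every DR library lay above every AL library (exact permutation p = 0.0159, adjusted p = 0.0317 over the 4 ratios). Counts of Cd34 exceeded those of Cd200 in all 9 libraries, by less in DR.

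Cd34 over Itga6, the transcripts of both sorting antigens, was lower in DR. The log2 ratio was 0.09, 0.59, -0.04 and 0.14 in DR replicates 1 to 4, against 1.39, 0.28, 0.71, 0.91 and 2.34 in AL replicates 1 to 5. AL replicate 2 fell among the DR values. The difference was -0.93 (exact permutation p = 0.0317, adjusted p = 0.0423), and -0.63 without AL replicate 5 (adjusted p = 0.0762).

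Lgr6 over Lgr5 averaged -2.74 ± 0.48 on the log2 scale in DR and -2.12 ± 0.36 in AL (SD, n = 4 and 5). DR replicates 3 and 4 lay within the AL range, and the difference of -0.62 did not pass (exact permutation p = 0.0794, also after adjustment). The fall of Lgr6 is therefore not shown to differ from the value of Lgr5. Lrig1 over Lgr6 did differ, with log2 ratios of 1.34 to 2.07 in DR and 0.52 to 1.24 in AL and a difference of 0.72 (exact permutation p = 0.0159, adjusted p = 0.0317). Every DR library lay above every AL library in that ratio.

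**Figure D4:**
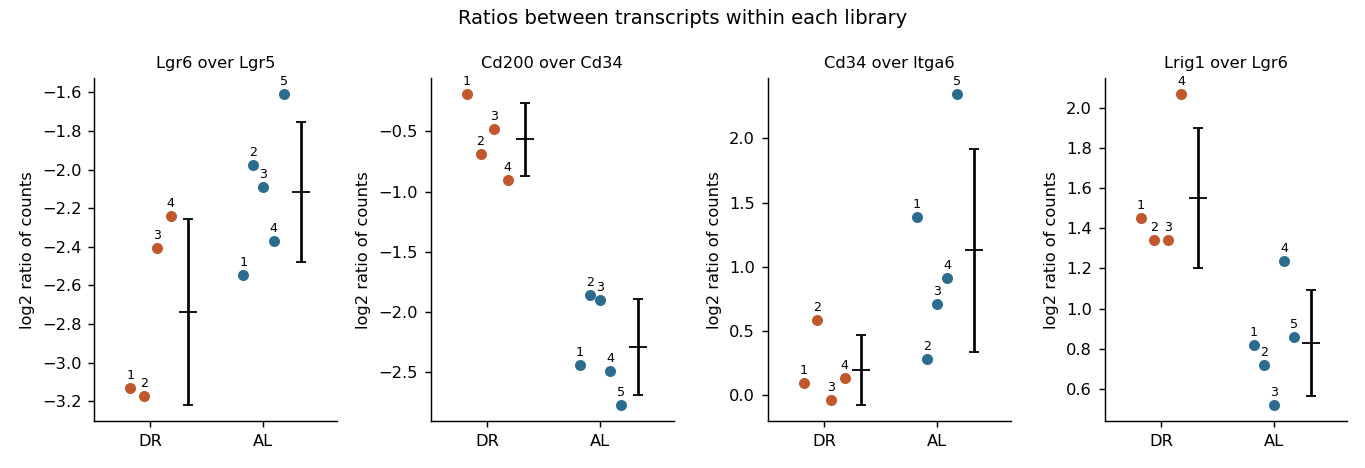
Log2 ratios of counts (y axes) within each DR and AL library for 4 pairs of transcripts; points carry the replicate number, and bars are the mean with SD (n = 4 and 5). Cd200 over Cd34 and Lrig1 over Lgr6 separated the diets, while Lgr6 over Lgr5 overlapped.

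Some members also varied together among libraries of the same diet. As a description over 9 libraries, which share depth and composition, Pearson's r of the log2 CPM deviations from the diet means was 0.80 for Cd34 with Cd200 and 0.75 for Cd34 with Postn. It was -0.97 for Cd200 with Lrig1 and -0.81 for Cd34 with Lgr6. Cd34 and Cd200 thus tended to stand high and low together within a diet, although Cd34 was lower and Cd200 higher in DR. These values pool both diets, and the match was looser in DR. DR replicate 4 was second for Cd34 and lowest for Cd200 in DR. DR replicate 2, highest there for Cd34, was second for Lgr6. Between Lgr5 and Lgr6 it was 0.52, and between Lgr5 and Lrig1 -0.065. AL replicate 5 lies at the end of the AL range in each of these pairs.

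**Figure D5:**
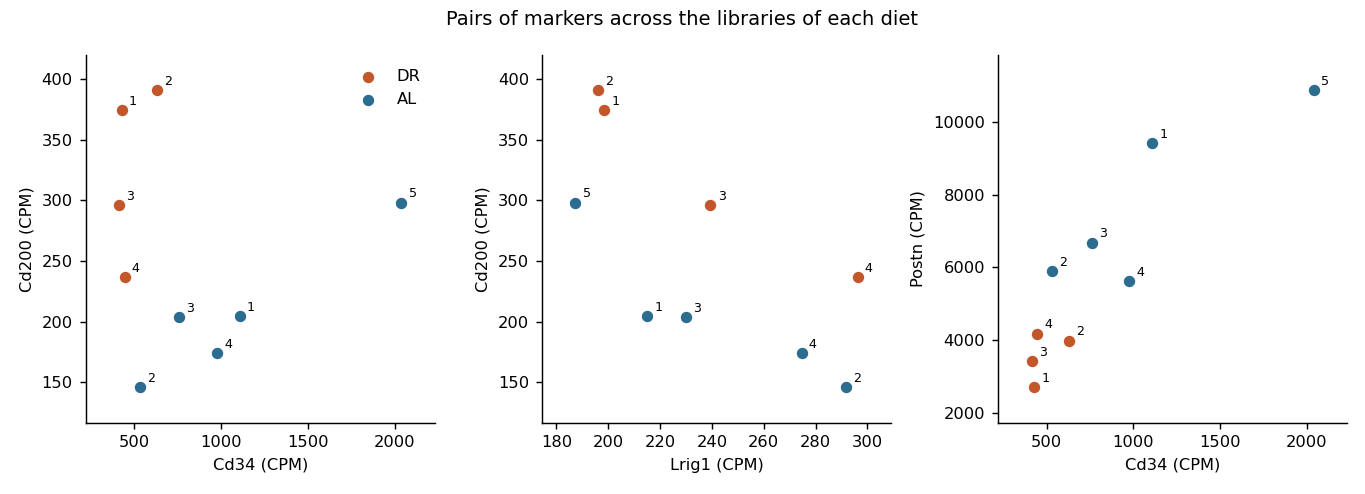
CPM of a pair of members in each panel (both axes linear), with 1 numbered point per DR or AL library. Cd200 was higher in DR replicate 2 than in AL replicate 2, which had similar Cd34, Cd200 and Lrig1 ran in opposite directions within each diet, and Cd34 and Postn were both low in DR.

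For each member the genes most like it in log2 CPM over the 9 libraries were picked by Pearson's r among 8716 genes of at least 10 CPM, as a description. Cd34 was matched by Duoxa1, a maturation factor of the dual oxidases (r = 0.98), and Angptl2, a secreted angiopoietin-like protein (0.97). Cd200 was matched by Tnfrsf11b, which encodes osteoprotegerin (0.99), and Fam164a (0.98). Lgr6 was matched by the histone deacetylase gene Hdac2 (0.98) and the Wnt ligand gene Wnt5b (0.97), which averaged 13.4 CPM in DR and 25.6 CPM in AL. Postn was matched by the chloride transporter gene Clcn4-2 (0.99) and by Gpsm2, a spindle orientation gene (0.97). Lgr5 and Lrig1 had weaker matches, Cstf2 (0.94) and Adpgk (0.92) for Lgr5 and Dazap1 and Ewsr1 (both 0.92) for Lrig1. After removal of the diet means these 12 values ran from 0.91 to 0.98.

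Other markers of the same compartments were counted by the same fit, in which 40.7% of all genes tested passed (21.7% lower and 19.0% higher in DR). Of 14 outer bulge markers, 6 fell, 1 rose and 7 did not pass, with a median log2 fold change of -0.17. Npnt, which encodes the matrix protein nephronectin, had 70.7 ± 26.4 CPM in DR and 566 ± 90.5 CPM in AL (log2 fold change -3.00 with SE 0.26, adjusted p = 2.32e-05 by edgeR). S100a4 (-1.31) and the transcription factor gene Sox9 (-0.38) also fell, and Foxc1, another bulge transcription factor, rose by 0.68. The 4 inner bulge markers (Krt6a, Krt6b, Krt75 and Bmp6) did not pass. Of 7 tested hair germ and matrix markers, Cdh3, the P-cadherin of the germ, rose by 0.66 (348 ± 18.1 CPM in DR, 221 ± 26.6 CPM in AL), Dlx3 fell by 0.69 on the log2 scale and 5 did not pass. Of 8 upper follicle markers 3 rose and 5 did not pass. Gata6, a transcription factor of the junctional zone and sebaceous duct, had 17.1 ± 4.37 CPM in DR and 3.82 ± 1.84 CPM in AL (log2 fold change 2.17, SE 0.31, adjusted p = 0.000383). Ly6a (1.24) and Cst6 (0.71) were the others that rose. Ly6a was low, with means of 9.04 CPM in DR and 3.81 CPM in AL, and Cst6 averaged 39.3 CPM in DR and 24.0 CPM in AL. Gli1 (log2 fold change -0.72, adjusted p = 0.0563 by edgeR) and Krt79 (-0.84, adjusted p = 0.0608) did not pass. Gli1 averaged 204 CPM in DR and 336 CPM in AL. Markers above the bulge thus differed in direction in these cells, which were sorted for CD34 and alpha6 integrin. Lgr6 was lower, and Gata6, Ly6a and Cst6 were higher. Lrig1, Gli1, Krt79, Plet1, Prdm1 and Defb6 were not called.

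Partners of the R-spondin receptors were largely expressed. Of 20 listed, 18 were tested, of which 4 rose, 3 fell and 11 did not pass, with a median log2 fold change of 0.085. That share of calls is near the 40.7% of all genes tested. Lgr4, the third receptor of the family, had 474 ± 47.1 CPM in DR and 431 ± 47.5 CPM in AL and did not pass (0.14, SE 0.11). The R-spondin genes themselves were scarce: Rspo1 averaged 0.842 CPM in DR and 1.22 CPM in AL, and Rspo2 had no count in the 9 libraries. Rnf43 (-0.32) and Znrf3 (-0.53), ubiquitin ligases that remove Frizzled receptors unless R-spondin is bound, fell. The Frizzled genes Fzd6 (1.21) and Fzd4 (1.26) and the Wnt feedback gene Axin2 (1.25) rose, and Fzd2 fell by 0.38. Fzd4 was much scarcer, with means of 7.46 CPM in DR and 3.13 CPM in AL, against 230 and 99.1 CPM for Fzd6.

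Relatives and targets of LRIG1 were tested for 7 genes, of which 5 rose and 2 did not pass, with a median log2 fold change of 0.57. Of all genes tested 19.0% rose, and the list is too short to be set apart from them. Lrig3, a close relative of Lrig1, had 539 ± 18.7 CPM in DR and 248 ± 20.1 CPM in AL (log2 fold change 1.12 with SE 0.09, adjusted p = 1.63e-05 by edgeR). The receptor genes Erbb3 (0.92), Ret (2.14), Egfr (0.57) and Erbb2 (0.24) rose as well, while Lrig2 (0.20) and Met (0.07) did not pass. Against these, Lrig1 itself had a log2 fold change of -0.04.

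Of the CD34 family, Podxl2 fell by 0.69 (9.57 ± 0.863 CPM in DR, 15.4 ± 0.819 CPM in AL) and Podxl did not pass (0.69, SE 0.56). The integrin genes Itgb4 (-0.13) and Itgb1 (-0.25), partners of Itga6, did not pass. Of 8 tested relatives and partners of periostin, 2 fell, 1 rose and 5 did not pass, near the 40.7% called over all genes. Tnc, the matrix protein tenascin C that periostin binds, had 46.3 ± 26.4 CPM in DR and 378 ± 96.2 CPM in AL (log2 fold change -3.03 with SE 0.34, adjusted p = 9.94e-05 by edgeR). Col1a1 fell by 3.34 and Itgb5, an integrin subunit that takes part in periostin binding, rose by 0.34. Tgfbi, the nearest relative of Postn, did not pass (1505 ± 187 CPM in DR, 1258 ± 316 CPM in AL, log2 fold change 0.26).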

How the data were processed

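RNA of sorted follicle stem cells was measured in 4 DR and 5 AL libraries (TruSeq RNA v2, single reads of 51 cycles, per the labels' protocols). What the authors deposited are raw read counts for each gene symbol, 1 table per library, not normalized. The submitters' processing notes list HTSeq 0.11.2, TopHat2 2.1.0, Bowtie and FastQC 0.11.5, and mm9 as the build. Strandedness of counting, gene annotation and treatment of multiply mapped reads: not given in the sources used here. In each file 6 of 35012 lines name no gene. They held 25.9% to 30.7% of the reads and were left out.

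Counts were tested with edgeR 4.0.16 in R 4.3.3: filterByExpr, TMM scaling, a quasi-likelihood fit on diet alone over all 15447 genes kept, with p-values adjusted by Benjamini-Hochberg and called below 0.05. CPM are after TMM. SE and intervals follow from the F statistic. The fit was tested on simulated data. No library copied another of its diet: chi-square per degree of freedom was 26.4 to 118 over the 16 pairs within a diet. Pairs across the diets were not checked this way. Same-numbered libraries did not deviate together in every pair, so the numbers were not treated as pairs. Symbols were matched to a RefSeq table of GRCm38.p6 for names: of 168, 1 was found under an older name and 1 was not found.

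The named genes are the 6 members, the 2 closest in pattern to each, up to 3 per direction of each list with the smallest p, Itga6 and Mki67. Others were named after their values were seen. Members and lists were chosen with earlier results of these data known. Alternatives were DESeq2 1.42.0, limma 3.58.1 (voom with quality weights), other scalings, filters, a replicate block and leaving out libraries. Lgr6, the scarcest member, had at least 2021 counts in each library, so counting error was small beside the spread between libraries.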

Additional observations from a re-analysis of the deposited data

Results flagged for a closer look

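Screening 26 groups of values (members, ratios, Itga6, Mki67 and the cycling sum in each diet) for 1 library far from the rest gave 3 hits. By chance about 1 of every 20 groups screened would be flagged, so some hits are likely among 26. The groups are not independent, since the ratios reuse member counts. Cd34 in DR replicate 2 was 629 CPM, against 413 to 444 CPM in the other DR libraries, a gap of 0.858 of the DR range. Lgr5 in AL replicate 5 was 315 CPM, against 601 to 712 CPM in the other AL libraries, a gap of 0.72 of the AL range. The log2 ratio of Lrig1 over Lgr6 in DR replicate 4 was 2.07, against 1.34 to 1.45 in the other DR libraries, a gap of 0.851 of the DR range.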

How the results depend on the processing

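Cd34, Cd200, Lgr6 and Postn kept direction and call under the 8 planned settings other than leaving out a library. One of these is the replicate block, where AL replicate 5 has no partner and adds nothing to the diet contrast. With 1 library left out, log2 fold changes ran from -1.34 to -0.82 for Cd34, 0.56 to 0.83 for Cd200, -0.87 to -0.66 for Lgr6 and -1.20 to -0.95 for Postn, and the members called higher were 0 to 1. Lgr5 ran from -0.31 to 0.026, above 0 without DR replicate 4. Lrig1 ran from -0.18 to 0.050. It was above 0 on leaving out AL replicate 2 (0.050) or 4 (0.0067), or DR replicate 1 (0.027) or 2 (0.032). The differences in log2 ratio ran from 1.6001 to 1.84 for Cd200 over Cd34, -1.15 to -0.63 for Cd34 over Itga6 and 0.55 to 0.82 for Lrig1 over Lgr6, with adjusted p under 0.05 without AL replicate 2 or DR replicate 2 alone. Fewer splits raise the smallest p to 0.0286 or 0.0357.

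An alternative chosen after seeing the data left out AL replicate 1 and DR replicates 1 and 2, the libraries with most endothelial, leukocyte and adipocyte marker RNA. It left 2 DR and 4 AL libraries, and 0 members were called higher and 0 lower, while 4601 genes passed (6290 with all libraries). Log2 fold changes were -1.33 for Cd34 (adjusted p = 0.0858), 0.38 for Cd200 (0.32), -0.75 for Lgr6 (0.0522), -0.93 for Postn (0.0738), -0.46 for Lgr5 (0.328) and 0.13 for Lrig1 (0.661), all by edgeR. The ratio differences were 1.56, -1.01 and 0.87 for Cd200 over Cd34, Cd34 over Itga6 and Lrig1 over Lgr6, with an adjusted p of 0.178 each, where the smallest exact p is 0.133. Fewer libraries enter this fit; the cause of the lost calls was not tested.

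With the replicate block, 6433 genes passed and all member calls held. Lgr5 moved to -0.36 (adjusted p = 0.0916, unadjusted 0.0456). The block's ratio differences were 1.61, -0.63 and 0.73, with an exact sign-flip adjusted p of 0.25, where 4 pairs allow no p below 0.125. Same-numbered libraries had deviations correlated at 0.029 to 0.228, and 1 of 4 correlated best with its own number. The median of all genes moved by less than 0.1 under each scaling.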
